A study of Mus musculus with 4 samples.

Results

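The Ly6 genes Ly6c1, Ly6c2, Ly6i, Ly6a and Ly6e were followed in single myeloid cells of the mouse colon. The 5 genes were taken as the Ly6 members of chromosome 15 that monocytes are known to use, and they are 5 of the 28692 genes in the deposited table. Cells came from the lamina propria (the connective tissue layer beneath the gut epithelium) of 4 male C57/Bl6N mice. DEP 11 and DEP 13 had been gavaged with 12 µg of diesel exhaust particles (DEP) in 200 µL of PBS on 5 days a week over about 6 months, and PBS 2 and PBS 3 with PBS alone. Cells carrying CD11b together with Ly6C or CD64 had been sorted, and each mouse was run in a well of its own, so a mouse is 1 sample and each group has 2. Neither a transgene nor a gene deletion is named in the labels.

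Ly6 proteins are small, cysteine-rich molecules held on the outer cell surface by a lipid anchor. Ly6C, the product of Ly6c1 and Ly6c2, is high on blood monocytes that use the chemokine receptor CCR2 to enter tissue, and in the gut wall it is known to be lost as these cells acquire MHC class II and mature into macrophages that make the complement component C1q. Ly6a encodes Sca-1, a marker of haematopoietic stem cells that is also found on activated lymphocytes, and Ly6e encodes an antigen of thymocytes and many other cells. Several genes of the cluster are known to respond to interferon. Because Ly6C was itself a sort marker, the levels of Ly6c1 and Ly6c2 between cell classes are given as values without a test.

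Of 6954 barcodes, 4771 had at least 1000 UMIs (unique molecular identifiers, 1 per captured transcript molecule) and were used. They numbered 675 to 1582 per mouse, with 4357153 to 10063287 UMIs per mouse and medians of 5328.5 to 7115.5 UMIs per barcode, DEP 13 having the fewest barcodes and UMIs. Of the barcode codes, 36 occurred in more than 1 mouse, 12 of them at this depth. A signature of T, B or plasma cells, endothelium, stroma or epithelium (at least 2 genes and 3 UMIs of a marker list) was carried by 321 barcodes, 125 of them in PBS 3 and 58 to 74 in each other mouse. Results that rest on these barcodes are given with and without them.

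Barcodes were divided by the levels of Ccr2 (high at 3 or more UMIs per 10000) and C1qa (high at 10 or more UMIs per 10000). This gave 817 Ccr2-high C1qa-low barcodes, 1690 Ccr2-high C1qa-high, 1940 Ccr2-low C1qa-high and 324 Ccr2-low C1qa-low. The limits divide a continuous range, and 536 barcodes had a C1qa level between 8 and 12 and 713 a Ccr2 level between 2 and 4. A list of 20 other monocyte genes summed to 10378 to 11678 CPM per mouse (UMIs of the genes over all UMIs, scaled to a common total) in the Ccr2-high C1qa-low class and to 1662 to 2404 CPM in the Ccr2-low C1qa-high class. A list of 20 other macrophage genes ran the other way, with 12953 to 19853 CPM and 45688 to 58554 CPM. The 8 T cell markers summed to 61.0 to 143.8 CPM in the Ccr2-high C1qa-low class and to 25.0 to 52.1 CPM in the Ccr2-low C1qa-high class, whereas the 8 B cell markers summed to 38.2 to 91.5 CPM and 101.5 to 210.3 CPM. The 7 neutrophil markers summed to 41.5 to 78.4 CPM and 26.6 to 34.5 CPM, higher in the first class in each mouse. The highest of these sums, 78.4 CPM for DEP 13, came from 1 of the 7 genes. Among Ccr2-high C1qa-low barcodes of the remaining mice, 3 or 4 of the genes had any UMI. Whether neutrophils carried these UMIs, and their part in the results, was not tested.

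The members lie side by side on mm10 chromosome 15 (GENCODE M21). From the proximal side they run Ly6e (ENSMUSG00000022587, 74955051 to 74959905, plus strand), Ly6i (ENSMUSG00000022586, 74979534 to 74983430, minus strand), Ly6a (ENSMUSG00000075602, 74994877 to 74998031, minus strand), Ly6c1 (ENSMUSG00000079018, 75044018 to 75048830, minus strand) and Ly6c2 (ENSMUSG00000022584, 75108158 to 75111970, minus strand). In the barcodes used, Ly6e had 26856 UMIs in 4426 barcodes, Ly6c2 6348 UMIs in 1976, Ly6a 4226 UMIs in 1391, Ly6i 833 UMIs in 503 and Ly6c1 252 UMIs in 203.

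Ly6c1 and Ly6c2 are near copies. Their transcripts matched at 97.6% of 822 aligned bases. Libraries of this kind read the 3′ end, and of all 50-base stretches in the last 500 bases, 90 of the 451 of Ly6c1 also occur in Ly6c2. For Ly6i and Ly6a 4.43% of such stretches occur in another gene, and for Ly6e 0. The sources used here do not say how reads common to several genes were assigned, so the separation of Ly6c1 from Ly6c2 is uncertain.

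The start regions of the pair are shown because both genes followed the same pattern over the cell classes. Each sequence is a RefSeq window (GRCm38.p6) from 250 bases before to 50 bases after the transcription start, read 5′ to 3′ on the minus strand, at chr15:75048788-75049087 for Ly6c1 and chr15:75111922-75112221 for Ly6c2. Capitals mark GAGGAAGT, which contains the GGAA core bound by PU.1 and other ETS factors, and TATAAA.
Ly6c1: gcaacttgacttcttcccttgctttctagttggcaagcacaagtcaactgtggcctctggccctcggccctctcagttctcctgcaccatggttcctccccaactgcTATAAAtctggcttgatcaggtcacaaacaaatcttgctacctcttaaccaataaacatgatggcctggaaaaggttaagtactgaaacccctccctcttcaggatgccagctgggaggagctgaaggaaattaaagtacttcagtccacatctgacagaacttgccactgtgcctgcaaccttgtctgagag
Ly6c2: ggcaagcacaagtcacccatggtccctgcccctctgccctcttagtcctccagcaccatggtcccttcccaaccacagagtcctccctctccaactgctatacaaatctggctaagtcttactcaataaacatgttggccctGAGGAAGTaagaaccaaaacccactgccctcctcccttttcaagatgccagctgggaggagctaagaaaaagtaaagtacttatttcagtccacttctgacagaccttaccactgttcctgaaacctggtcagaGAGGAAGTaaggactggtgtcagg
The windows matched at 78.2% of 266 aligned bases. GAGGAAGT, searched on both strands, occurred at offsets −108 and 26 from the start in the Ly6c2 window and not in the Ly6c1 window shown. A second RefSeq window of Ly6c1 (chr15:75048614-75048913) held 1 copy. Of 32851 promoter windows of this length in all genes, 3.20% held GAGGAAGT and 13.6% held TATAAA, which was found in Ly6c1 at offset −143. RefSeq windows were given for these genes alone among the members.

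Ly6c2 was highest in the classes with little C1qa. In the Ccr2-high C1qa-low class it stood at 529.9 CPM in DEP 11, 358.7 CPM in DEP 13, 638.3 CPM in PBS 2 and 494.8 CPM in PBS 3. Its level among Ccr2-low C1qa-high barcodes was 99.4, 36.8, 108.6 and 136.8 CPM in the same order. No mouse of one class overlapped any mouse of the other, and the within-mouse ratio ran from 3.62 in PBS 3 to 9.76 in DEP 13. Without the barcodes that carry a non-myeloid signature the ratios were 6.49 to 15.6. The fitted log2 difference between the classes was 2.34 and ran from 1.40 to 2.97 over 19 alternative settings. After each barcode was thinned to 1000 UMIs, 19.3% to 36.3% of Ccr2-high C1qa-low and 3.65% to 9.38% of Ccr2-low C1qa-high barcodes kept a Ly6c2 UMI.

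The lower of these levels was not separated from background. Barcodes with under 500 UMIs, taken here as the level of free RNA, carried Ly6c2 at 79.4 CPM in DEP 11, 16.1 CPM in DEP 13, 73.9 CPM in PBS 2 and 128.8 CPM in PBS 3, from 1 to 16 UMIs per mouse. These values overlap those of the Ccr2-low C1qa-high class. The Ccr2-high C1qa-high class was intermediate, with 106.3 to 213.9 CPM, and its spread overlapped that of the Ccr2-low C1qa-high class. The Ccr2-low C1qa-low class reached 382.1 to 770.5 CPM (543.3 ± 177.6, SD, n = 4) and overlapped the Ccr2-high C1qa-low class (505.4 ± 115.3).

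Ly6c1 showed the same order at lower counts. It stood at 21.5, 15.97, 27.0 and 18.4 CPM in the Ccr2-high C1qa-low class of DEP 11, DEP 13, PBS 2 and PBS 3, from 11 to 27 UMIs per mouse. Among Ccr2-low C1qa-high barcodes it stood at 3.75, 2.72, 4.83 and 3.24 CPM. Barcodes under 500 UMIs had 16.4 CPM in PBS 2 and 8.05 CPM in PBS 3, from 2 and 1 UMIs, and 0 UMIs in DEP 11 and DEP 13, which allows up to 18.3 and 48.4 CPM, so the lower class was not separated from background for Ly6c1 either. The classes did not overlap, and the 4 within-mouse ratios lay between 5.58 and 5.87, or between 6.21 and 16.4 without the signature barcodes. Among Ccr2-high C1qa-low barcodes, every one of the 74 with a Ly6c1 UMI also had a Ly6c2 UMI (95% exact binomial interval 95.1 to 100%), against 54.8% of the 743 without (51.1 to 58.4%), at median depths of 5232.5 and 4674 UMIs. These intervals cover counting error only, and part of the overlap can come from the sequence that the transcripts share.

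**Figure D1:**
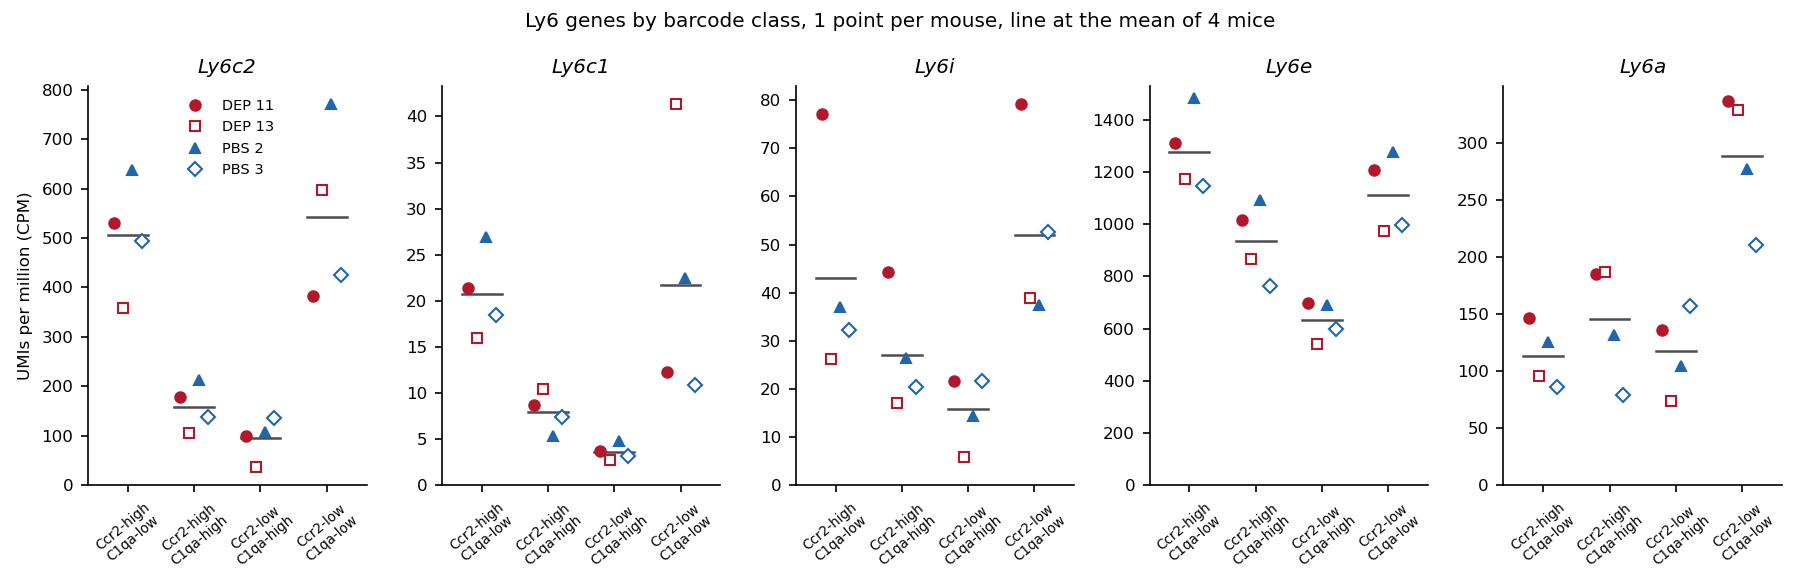
Level of each Ly6 gene in CPM (linear axis from 0, own scale per gene) in the 4 classes of Ccr2 and C1qa level, with 1 point per mouse (red DEP, blue PBS) and a line at the mean of the 4 mice. Ly6c2, Ly6c1 and Ly6e of every mouse are higher in Ccr2-high C1qa-low than in Ccr2-low C1qa-high barcodes, and Ly6a is not.

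Of the members that the sort did not select on, Ly6e and Ly6i were higher in the Ccr2-high C1qa-low than in the Ccr2-low C1qa-high class. They are 2 of the 3 members tested, while 36.8% of all 6715 genes passed in either direction and 18.7% passed as higher, so such a difference is common among genes in this comparison. The test was edgeR's quasi-likelihood test on UMI sums per mouse and class with the mouse as a block and Benjamini-Hochberg adjustment at 0.05.

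Ly6e, the interferon-inducible antigen of broad expression, was found in 94.7% to 98.7% of Ccr2-high C1qa-low barcodes. Its level there was 1312 and 1173 CPM for the DEP mice (11, then 13) and 1482 and 1144 CPM for the PBS mice (2, then 3). The Ccr2-low C1qa-high class had 696.6, 543.2, 691.8 and 599.1 CPM. The classes did not overlap, each mouse showed a ratio between 1.88 and 2.16, and the edgeR log2 fold change was 0.95 ± 0.06 (SE, adjusted p = 1.58e-10). The Ccr2-high C1qa-high class lay between them, with 762.6 to 1093 CPM, and exceeded the Ccr2-low C1qa-high class within each mouse. Ly6e also made up 362.3 to 598.3 CPM of the barcodes under 500 UMIs.

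Ly6i, a close relative of Ly6c whose function is little described, was sparse. Among Ccr2-high C1qa-low barcodes it had 77.1 and 26.1 CPM with DEP (mouse 11, then 13) and 37.1 and 32.3 CPM with PBS (mouse 2, then 3), from 18 to 97 UMIs. The Ccr2-low C1qa-high class had 21.6, 5.90, 14.5 and 21.6 CPM. The classes did not overlap, the ratio within a mouse ran from 1.49 in PBS 3 to 4.43 in DEP 13, and the edgeR log2 fold change was 1.31 ± 0.20 (SE, adjusted p = 2.58e-05). DEP 11 stood above the other mice in each class but the Ccr2-low C1qa-high one, where PBS 3 matched it. In the barcodes under 500 UMIs, 0 to 3 Ly6i UMIs per mouse were found, and the count of 0 in PBS 3 allows up to 24.2 CPM.

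Ly6a did not pass the test between these classes, and the sign of its fitted difference changed with the settings. It stood at 146.2, 95.8, 125.9 and 85.7 CPM in the Ccr2-high C1qa-low class and at 135.7, 73.5, 104.2 and 157.3 CPM in the Ccr2-low C1qa-high class of DEP 11, DEP 13, PBS 2 and PBS 3. PBS 3 was the mouse with the higher value in the second class (ratio 0.545), and the other ratios were 1.08 to 1.30. The edgeR log2 fold change was −0.14 ± 0.14 (SE, adjusted p = 0.506). It was 0.17 without PBS 3 (adjusted p = 0.260), 0.19 without the signature barcodes (adjusted p = 0.220), 0.33 without the 5% of barcodes with the most UMIs (adjusted p = 0.0122) and 0.41 with C1qa counted as high from 20 per 10000 (adjusted p = 0.00284), and adjusted p ran from 0.00284 to 0.996 over the 19 alternatives.

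Barcodes with a lymphoid signature carried Ly6a at higher levels than the rest. The 90 barcodes with a T cell signature carried 689.2 CPM in DEP 11, 652.2 CPM in DEP 13, 531.4 CPM in PBS 2 and 593.2 CPM in PBS 3. Those with a B cell signature carried 320.9 to 600.7 CPM and those with a plasma cell signature 307.0 to 635.7 CPM. The 4450 barcodes without any such signature carried 133.3, 82.6, 105.6 and 73.9 CPM. The groups with and without a signature did not overlap. Barcodes under 500 UMIs carried Ly6a at 32.3 to 48.8 CPM in the DEP mice and 80.5 to 82.2 CPM in the PBS mice, from 2 to 10 UMIs each. The PBS 3 level without a signature was not separated from this background. Nor was that of Ccr2-low C1qa-high barcodes without a signature, with 44.1 to 97.4 CPM over the mice. In PBS 3, 67 of the 650 Ccr2-low C1qa-high barcodes bore a signature, and its Ly6a level in that class was 73.8 CPM without them. The ratio of PBS 3 was then 0.867 and those of the other mice 1.18 to 1.68, so each mouse kept its direction.

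Ly6c2 was higher with a T cell signature than without a signature in 3 of 4 mice. It stood at 692.5, 617.7, 150.5 and 510.3 CPM in barcodes with a T cell signature of DEP 11, DEP 13, PBS 2 and PBS 3, and at 202.9, 129.2, 221.2 and 172.7 CPM in barcodes without a signature, so PBS 2 departed from the other mice. With a B cell signature it had 234.2 to 527.8 CPM and with a plasma cell signature 213.8 to 509.8 CPM, the latter overlapping the barcodes without a signature. Ly6e overlapped between barcodes with a T cell signature and those without a signature, with 745.9 to 1074 CPM and 742.6 to 950.8 CPM, and Ly6i did too, with 9.41 to 39.3 CPM and 15.5 to 45.5 CPM. A barcode with a signature may hold a lymphocyte or a lymphocyte together with a myeloid cell, and which of these it holds was not tested. Medians were 7439.5 to 11671 UMIs per mouse in barcodes with a T cell signature and 5234.5 to 7068 in those without a signature.

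**Figure D2:**
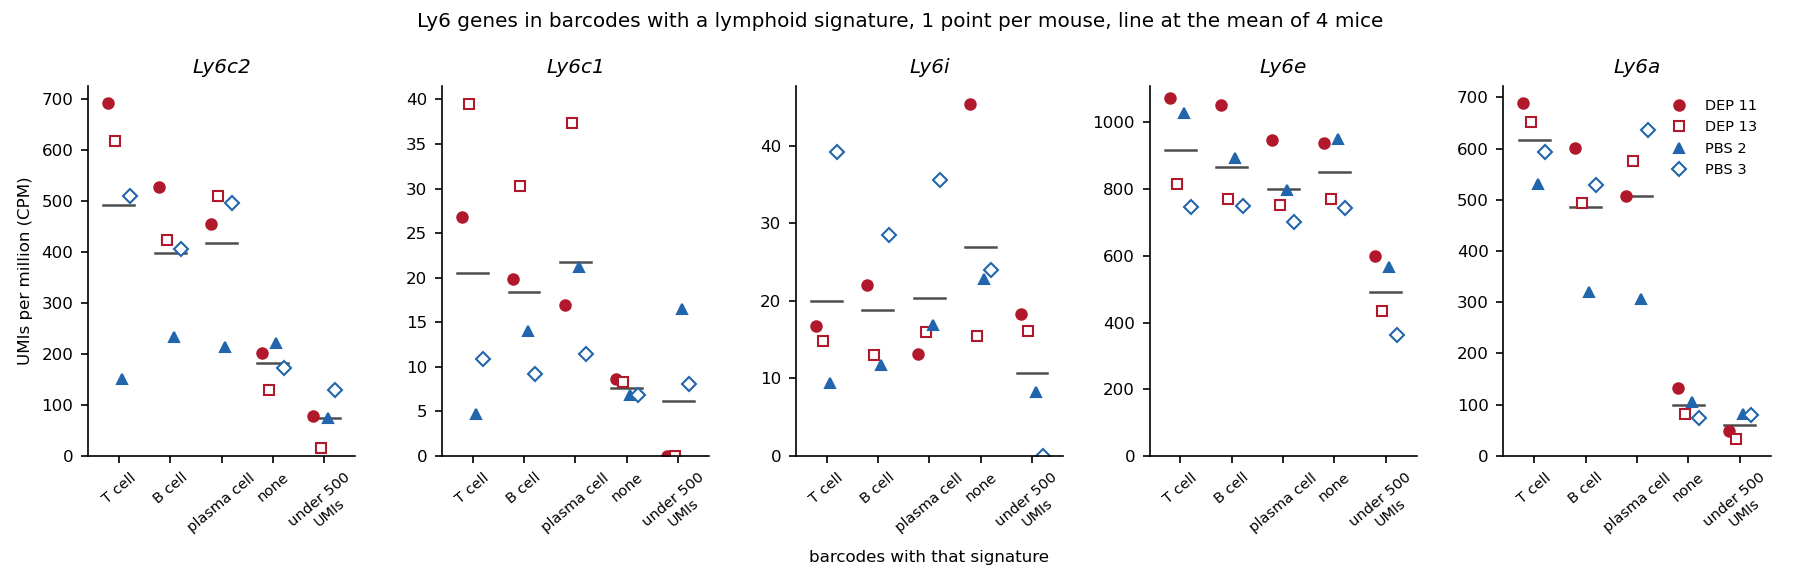
Level of each Ly6 gene in CPM (linear axis from 0) in barcodes with a T cell, B cell or plasma cell signature, in barcodes with no non-myeloid signature (none) and in barcodes with under 500 UMIs, with 1 point per mouse and a line at the mean of the 4 mice. Ly6a lies between 307.0 and 689.2 CPM in each lymphoid group and between 73.9 and 133.3 CPM without a signature.

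The genes were also followed along the C1qa level itself. Ly6c2 averaged 501.6 ± 182.1 CPM (SD, n = 4 mice) below 5 C1qa UMIs per 10000, 534.8 ± 82.7 CPM from 5 to 10 and 431.4 ± 87.0 CPM from 10 to 20, which did not differ beyond the spread between mice. From 20 to 40 it averaged 137.5 ± 82.9 CPM and from 60 upward 44.9 ± 12.8 CPM. Ly6c1 was lower at the same step, going from 21.5 ± 6.51 CPM at 10 to 20 to 5.28 ± 1.502 CPM at 20 to 40, where no mouse overlapped.

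Ly6e was also lower at 20 to 40 than at 10 to 20 within each of the 4 mice, although the mice overlapped between these ranges. Ly6i was lower in DEP 13, PBS 2 and PBS 3 and level in DEP 11, with 64.1 and 63.5 CPM, or 69.0 and 70.0 CPM without the signature barcodes. Ly6i went from 46.1 ± 14.7 CPM at 10 to 20 to 33.5 ± 20.8 CPM at 20 to 40 and to a range of 3.39 to 14.9 CPM from 60 upward. Ly6e went from 1140 ± 239.8 CPM at 10 to 20 to 843.0 ± 210.6 CPM at 20 to 40, 621.9 ± 120.8 CPM at 40 to 60 and 695.1 ± 73.0 CPM from 60 upward. Over the last step it was higher in DEP 13 (490.5 to 768.4 CPM), DEP 11 (635.2 to 721.8 CPM) and PBS 3 (582.5 to 595.7 CPM) and lower in PBS 2 (779.3 to 694.6 CPM). Ly6a had its highest mean at 10 to 20, with 256.0 ± 65.9 CPM, and 81.5 ± 26.5 CPM from 60 upward. Of the 795 barcodes at 10 to 20, 73 bore a non-myeloid signature. Without signature barcodes the Ly6a level there was 117.0 ± 41.6 CPM and the highest mean moved to 20 to 40, with 142.2 ± 53.4 CPM.

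**Figure D3:**
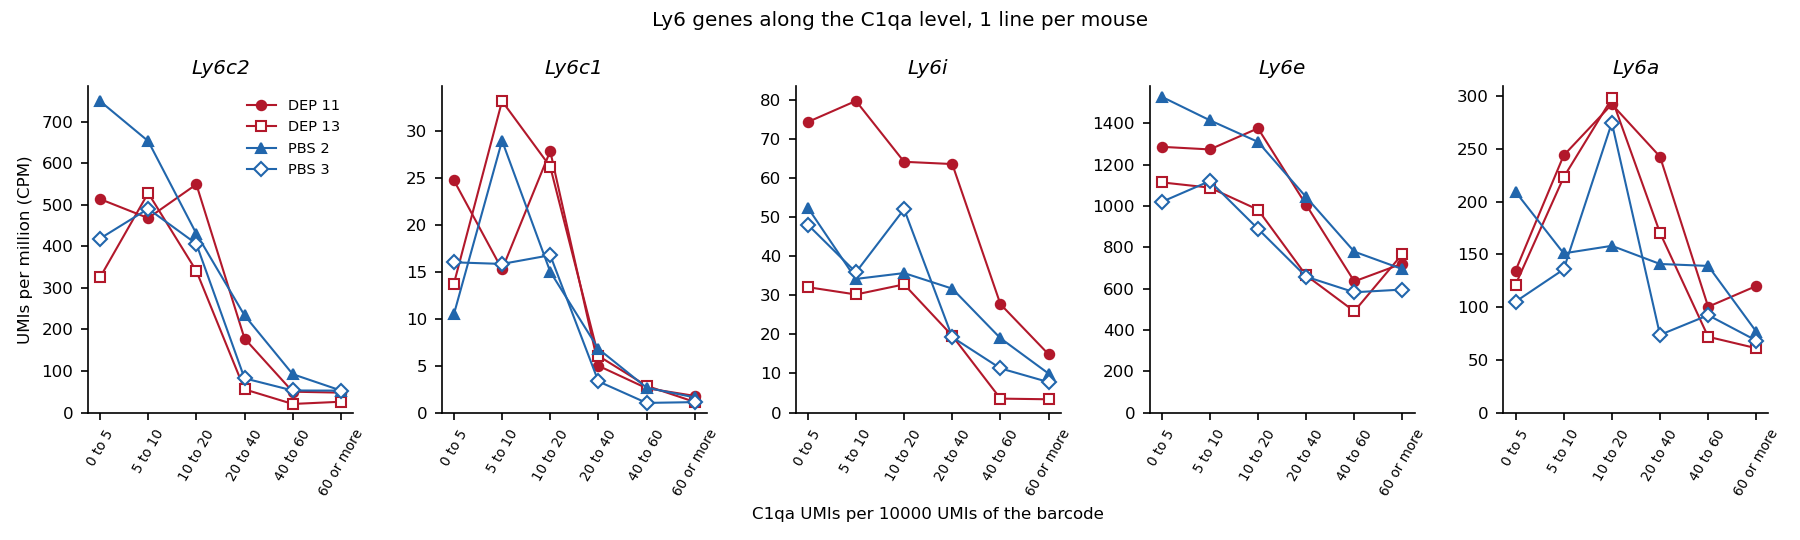
Level of each Ly6 gene in CPM (linear axis from 0) over 6 ranges of the C1qa level (UMIs per 10000 UMIs of the barcode), with 1 line per mouse (red DEP, blue PBS). Ly6c2 and Ly6c1 of each mouse drop between the ranges 10 to 20 and 20 to 40, as does Ly6e, which is higher again from 60 upward in 3 of 4 mice.

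Over the Ccr2 level the direction was opposite. Ly6c2 went from a mean of 124.6 ± 48.4 CPM below 1 Ccr2 UMI per 10000 to 337.5 ± 22.4 CPM from 12 upward, and Ly6e from 647.2 ± 66.3 to 1239 ± 194.5 CPM, without overlap of mice. Ly6a averaged 130.8 ± 49.4 CPM at the lower and 120.5 ± 28.4 CPM at the upper end, which overlapped.

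Within the Ccr2-high C1qa-low class the members separated by MHC class II. Barcodes of each mouse were ranked by the share of UMIs from H2-Aa, H2-Ab1, H2-Eb1 and Cd74, which encode the MHC class II chains and their chaperone, and the barcodes with the lowest and the highest values (tertiles, equal groups of barcodes) were compared as a description. Ly6c2 went from 824.2 to 372.6 CPM in DEP 11, from 543.7 to 202.4 CPM in DEP 13, from 1192 to 270.6 CPM in PBS 2 and from 813.5 to 232.5 CPM in PBS 3. It was lower in the highest tertile of all 4 mice, with no overlap between the tertiles and a mean log2 difference of −1.63 ± 0.43 (SD, n = 4, on log2 of CPM plus 1). Ly6c1 was lower in all 4 mice too, by −1.91 ± 0.27, from 5 to 15 UMIs in the lowest and 1 to 5 in the highest tertile.

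Ly6i and Ly6a did not share this decline. Ly6i was higher in the highest tertile of all 4 mice, by 0.86 ± 0.94, with DEP 11 far above the others at 157.8 CPM against 32.6 CPM. In DEP 13, PBS 2 and PBS 3 the change was 22.8 to 36.0, 34.1 to 44.1 and 24.0 to 28.1 CPM, from 5 to 14 UMIs each. Ly6e was lower in all 4 mice, by only −0.21 ± 0.14. After thinning to 1000 UMIs, which left few UMIs per tertile, Ly6c2 alone kept 1 direction in all 4 mice, by −1.50 ± 0.39. Ly6a was higher in 3 of 4 mice, by 0.54 ± 0.90, and in 4 of 4 without the signature barcodes, by 1.32 ± 0.70. Median depth differed by less between tertiles than between mice, with 4428 to 6550 UMIs in the lowest and 4714 to 6263 in the highest tertile.

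Ranking by interferon-stimulated genes gave another order. The list held 38 genes, among them Irf7, Isg15 and Ifit3, and none of the Ly6 genes. Of the 31 tested, 26 were higher and 1, Cxcl9, was lower in the Ccr2-high C1qa-low than in the Ccr2-low C1qa-high class by edgeR. Of all 6715 tested genes, 18.7% were called higher and 18.1% lower. The median log2 fold change of the list was 0.90 against 0.00058 over all tested genes. Irf7, a regulator of the interferon response, had a log2 fold change of 1.98, and Isg15, a ubiquitin-like modifier, of 0.82.

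Ly6e was higher in the tertile with the highest interferon list level in every mouse and in both classes. In the Ccr2-high C1qa-low class it went from 1079 to 1535 CPM in DEP 11, from 862.1 to 1424 CPM in DEP 13, from 1221 to 1700.5 CPM in PBS 2 and from 917.9 to 1354 CPM in PBS 3. The mean log2 difference was 0.57 ± 0.11 there and 0.82 ± 0.29 in the Ccr2-low C1qa-high class (SD, n = 4), and after thinning to 1000 UMIs it was higher in 3 of 4 and in 4 of 4 mice. Ly6c2 was higher in 4 of 4 mice in the Ccr2-high C1qa-low class, by 1.32 ± 0.66, with 267.3 to 786.1 CPM in DEP 11, 196.7 to 600.3 CPM in DEP 13, 606.8 to 774.5 CPM in PBS 2 and 246.4 to 853.5 CPM in PBS 3. PBS 2 had the smallest difference.

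In the Ccr2-low C1qa-high class Ly6i was higher in the highest interferon tertile of each mouse. It went from 7.82 to 56.1 CPM in DEP 11, from 5.03 to 7.64 CPM in DEP 13, from 6.51 to 33.1 CPM in PBS 2 and from 21.1 to 40.2 CPM in PBS 3, and the DEP 13 values rest on 4 and 5 UMIs. Among Ccr2-high C1qa-low barcodes it was higher in 3 of 4 mice, with DEP 13 the exception. Ly6a was higher in 3 of 4 mice in each class, and in 4 of 4 in each class without the signature barcodes, by 1.58 ± 0.98 and 1.76 ± 0.46. Ly6c2 in the Ccr2-low C1qa-high class was higher in 2 of 4 mice, and in 4 of 4 without the signature barcodes, by 1.19 ± 0.47. The interferon list and the members were measured in the same barcodes, and no test was made of these differences.

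**Figure D4:**
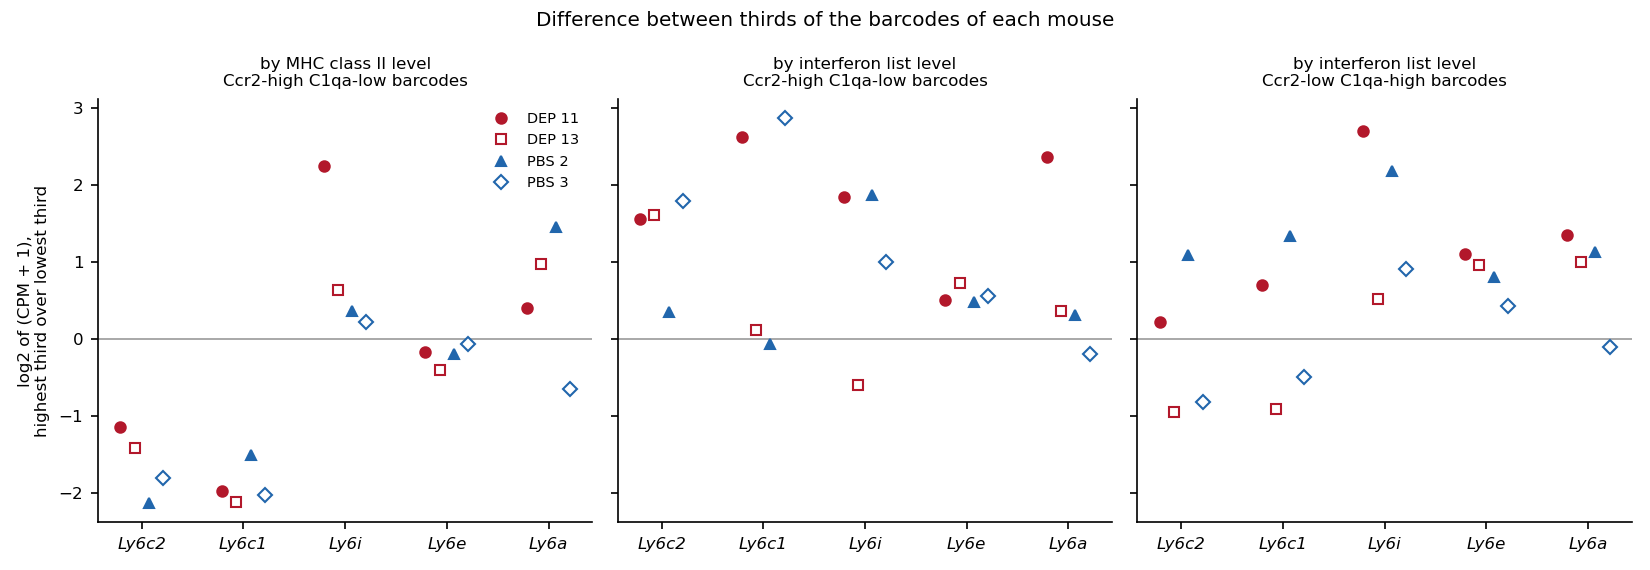
Difference between the highest and the lowest tertile of the barcodes of each mouse, as log2 of (CPM + 1), for each Ly6 gene, ranked by MHC class II level (left) or by the interferon list level (middle and right) within the named class, with 1 point per mouse. Ly6c2 and Ly6c1 lie below 0 for all mice on the left, and Ly6e lies above 0 for all mice in the middle and on the right.

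The study compared mice that had received DEP with mice that had received PBS. Over all barcodes, Ly6c2 stood at 220.3 CPM in DEP 11 and 157.2 CPM in DEP 13, against 216.4 CPM in PBS 2 and 193.8 CPM in PBS 3, so the groups overlapped. Ly6e stood at 942.4 and 761.5 CPM against 942.6 and 740.5 CPM, and overlapped too. Ly6i stood at 42.7 and 14.9 CPM against 22.1 and 24.1 CPM, with the DEP mice on either side of the PBS mice. Ly6a stood at 168.6 and 128.5 CPM against 121.8 and 124.8 CPM, both DEP mice above both PBS mice. Without the signature barcodes the Ly6a groups overlapped. Ly6c1 stood at 9.01 and 10.3 CPM against 7.45 and 6.84 CPM, from 45 to 75 UMIs per mouse, both DEP mice above both PBS mice. Without the signature barcodes it had 8.29 to 8.64 CPM against 6.83 to 6.85 CPM, from 31 to 63 UMIs per mouse. It was under the filter on detection and was not tested.

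None of the 4 members tested passed edgeR's quasi-likelihood test between DEP and PBS mice over all barcodes, and 0% of the 6609 tested genes did (0 genes, with 171 at an unadjusted p under 0.05 and 4 called by DESeq2). The log2 fold changes (DEP over PBS, ± SE) were −0.12 ± 0.17 for Ly6c2, 0.34 ± 0.38 for Ly6i, 0.27 ± 0.16 for Ly6a and 0.02 ± 0.16 for Ly6e, with adjusted p = 0.997 each.

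In the Ccr2-high C1qa-low class 0 of 5 members and 0% of 5637 genes passed (160 genes at an unadjusted p under 0.05, and 0 called by DESeq2). Ly6c2 averaged 444.3 ± 121.1 CPM with DEP and 566.6 ± 101.5 CPM with PBS (SD over 2 mice), and its log2 fold change was −0.33 ± 0.20 (SE). The estimates were −0.21 ± 0.36 for Ly6c1, 0.23 ± 0.24 for Ly6a and −0.06 ± 0.18 for Ly6e. Ly6i had the largest, 0.66 ± 0.37, and it was −0.34 without DEP 11. The edgeR adjusted p rounded to 1 for each of the 5.

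In the Ccr2-low C1qa-high class 0 of 4 tested members and 0% of 7039 genes passed (309 genes at an unadjusted p under 0.05, and 12 called by DESeq2). Ly6c2 had the smallest p of any member, with 99.4 and 36.8 CPM in DEP 11 and DEP 13 against 108.6 and 136.8 CPM in PBS 2 and PBS 3. Both DEP mice lay below both PBS mice, and the log2 fold change was −0.86 ± 0.31 (SE, edgeR adjusted p = 0.870). It was −1.73 without DEP 11 (adjusted p = 2.10e-05) and −0.36 without DEP 13. Without the signature barcodes the levels were 57.1 and 24.4 CPM against 101.3 and 75.2 CPM, again without overlap, and the log2 fold change was −1.07 (adjusted p = 0.252). The Ly6c2 level of the barcodes under 500 UMIs was in the same range and was also lowest in DEP 13, and its part in this difference was not tested. The list of 20 other monocyte genes lay lower in the same mice, with sums of 1964 and 1662 CPM in DEP 11 and DEP 13 against 2404 and 2266 CPM in PBS 2 and PBS 3. Of its 18 tested genes, 16 had a negative log2 fold change and 0 passed, with a median of −0.57 against −0.0072 over all genes. The interferon list summed to 1610 and 1444 CPM in DEP 11 and DEP 13 against 2185 and 1628 CPM in PBS 2 and PBS 3. Of its 31 tested genes, 24 had a negative log2 fold change and 0 passed, with a median of −0.27. Ly6i, Ly6a and Ly6e had −0.35 ± 0.40, −0.35 ± 0.26 and −0.08 ± 0.17.

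**Figure D5:**
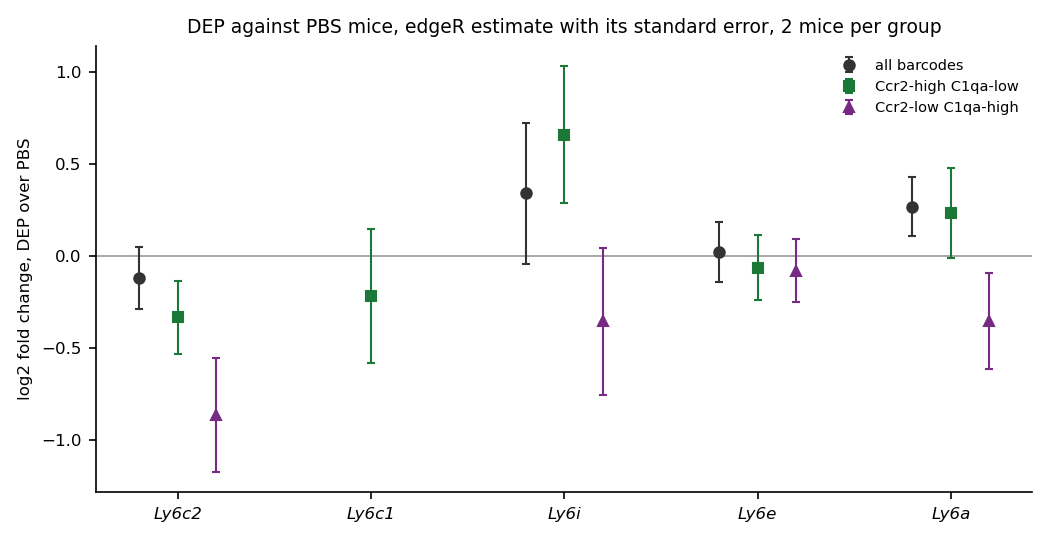
Log2 fold change of each Ly6 gene in DEP over PBS mice from edgeR (y axis) with bars of 1 standard error, over all barcodes (circles) and in the Ccr2-high C1qa-low (squares) and Ccr2-low C1qa-high (triangles) classes, 2 mice per group. Ly6c1 is drawn where it passed the filter. The estimates range from −0.86 to 0.66 and none passed the test.

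An interaction term, with the mouse as a block, compared the DEP effect of one class with that of the other. None of the 4 tested members passed, and 0.357% of 6715 genes did (0.208% with a higher and 0.149% with a lower difference). The difference of log2 fold changes, Ccr2-high C1qa-low minus Ccr2-low C1qa-high, was 0.98 ± 0.32 for Ly6i (SE, edgeR adjusted p = 0.494), 0.51 ± 0.22 for Ly6c2 (adjusted p = 0.754), 0.53 ± 0.26 for Ly6a (adjusted p = 0.820) and 0.01 ± 0.10 for Ly6e. For Ly6c2 it was 0.73 with C1qa counted as high from 20 per 10000 (adjusted p = 0.0256) and 0.51 without a gene filter (adjusted p = 0.0436), and adjusted p ran from 0.0256 to 1 over its 19 alternatives. Of the list of 20 monocyte genes, 19 were tested and 5 had a higher difference, Chil3, Clec4e, Hp, S100a4 and S100a6. All 19 were called higher in the Ccr2-high C1qa-low class itself, as were 18.7% of all tested genes. Of the list of 20 macrophage genes, 17 were tested and 3 had a lower difference, Apoe, C1qb and C1qc. The genes that set the classes differed in the same fit, C1qa by −0.53 (edgeR adjusted p = 0.00964) and Ccr2 by 0.52 (adjusted p = 0.133). How far these calls reflect where barcodes lie within the classes was not tested. Over all genes the 24 calls became 0 without the mouse as a block, 1 with a C1qa level of 5, 0 without PBS 2, 1 without PBS 3, 11 without DEP 11 and 41 without DEP 13.

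The share of barcodes with a Ly6c2 UMI overlapped between DEP and PBS mice at equal depth. After thinning to 1000 UMIs it was 15.3% and 11.3% in the DEP mice (11, then 13) and 15.9% and 14.6% in the PBS mice (2, then 3). The means were 13.3% ± 2.84 and 15.2% ± 0.914 (SD, n = 2 each), and the difference of −1.98 percentage points had a two-sided exact permutation p = 0.667, where the smallest p that 2 against 2 mice allow is 0.333. Unthinned, the shares were 39.7%, 30.8%, 49.5% and 40.6%, so both DEP mice lay below both PBS mice, by −9.86 percentage points on average (exact permutation p = 0.333, the smallest possible). Median depth was 5328.5, 5794, 7115.5 and 5367.5 UMIs in the same order. The shares were, in barcodes under 500 UMIs, at medians of 266 to 309 UMIs, 0.493% to 3.94%.

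Other genes of the Ly6/uPAR family, which share the same protein fold, were looked up from a list of 28. The table held 26, of which 12 had 0 UMIs and 7 had fewer than 20. Plaur, the receptor of urokinase, was found with 2021 UMIs, and its sums over mice were 88.2 CPM in the Ccr2-high C1qa-low and 65.0 CPM in the Ccr2-low C1qa-high class (edgeR log2 fold change 0.33, adjusted p = 0.0434). It was higher in the first class in DEP 13, PBS 2 and PBS 3. In DEP 11 it stood at 85.8 and 86.3 CPM, or 89.3 and 84.1 CPM without the signature barcodes. Ly6d, a B lineage marker, had 1592 UMIs in 366 barcodes and 582.4 CPM in barcodes with a B cell signature, a list it belongs to. It was lower in the Ccr2-high C1qa-low than in the Ccr2-low C1qa-high class (edgeR log2 fold change −0.76, adjusted p = 0.00191), and 90 of the barcodes with a B cell signature lay in the latter and 7 in the former. Without the signature barcodes Ly6d had 2.34 to 13.6 CPM and 4.01 to 17.1 CPM in these classes and was lower in the first in DEP 13 and PBS 2 but not in DEP 11 and PBS 3. Lypd8, an epithelial product, had 228 UMIs and 293.4 CPM in barcodes with an epithelium signature. The remaining 4 with at least 20 UMIs were Ly6k (58), Lynx1 (37), Cd59a (28) and Ly6g6e (24). Both tested members of this list, Plaur and Ly6d, were not called between DEP and PBS mice.

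Genes whose levels followed each member most closely were named from the Pearson correlation of log2(CPM + 1) over 16 sums, 4 classes in each of 4 mice, which share mice, libraries and depth. For Ly6c2 they were Ube2l3 (r = 0.973), Ifitm6 (0.959) and Cope (0.959), for Ly6c1 Gnas (0.910), Gm9844 (0.908) and Crip1 (0.902), and for Ly6e Coro1a (0.969), Samhd1 (0.966) and Rpl8 (0.965). Ly6i was followed by Cox5b (0.895), Mettl23 (0.869) and Fis1 (0.846), and Ly6a by Xbp1 (0.834), Rexo2 (0.773) and Sec11c (0.759). Xbp1 and Sec11c are abundant in antibody-secreting cells. Among the members the closest pairs were Ly6c1 with Ly6c2 (0.883) and Ly6c2 with Ly6e (0.879), and the most distant was Ly6a with Ly6e (0.355).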

How the data were processed

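Single-cell 3′ libraries (10x Genomics v2) had been made from sorted colon lamina propria cells of 4 mice. The authors deposited UMI counts without normalization, 1 whole number for each gene and barcode. The submitters' processing notes name Cell Ranger, STAR 2.6.1a, R 3.5.1 and mm10. Those notes give no Cell Ranger version, annotation or barcode filter.

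Ensembl identifiers were matched to GENCODE M21 (28416 of 28692). Barcodes with at least 1000 UMIs were kept, counts were summed per mouse or per mouse and class, and CPM were taken from these sums. Genes were tested if they exceeded 1 CPM in 2 or more sums and were detected in 5% or more of barcodes, with edgeR 4.0.16 (R 4.3.3, TMM scaling, quasi-likelihood test, Benjamini-Hochberg at 0.05), with DESeq2 1.42.0 as an alternative. The test was first run on simulated counts. Shares used numpy 2.4.6 and scipy 1.17.1. Doublets were not called, and leaving out the 5% of barcodes with the most UMIs was an alternative. The named genes were the members, the family members with at least 20 UMIs and, per member, the 3 genes of at least 50 CPM with the highest correlation. The members, lists and tests were chosen with earlier results of these data known. Leaving out barcode codes found in more than 1 mouse was added after the data were seen. The mice were numbered without pairs.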

Additional observations from a re-analysis of the deposited data

How the results depend on the processing

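Between the Ccr2-high C1qa-low and Ccr2-low C1qa-high classes, Ly6e kept its direction and call under 19 alternatives and Ly6i under 18, since Ly6i was under the filter after thinning. Of the 3 members tested, 2 were called in the main fit and 3 with a C1qa level of 20 or without the 5% of barcodes with the most UMIs, and of the 2 tested after thinning to 1000 UMIs 1 was called. Ly6a reversed to 0.19 without the signature barcodes, 0.33 without the 5% of barcodes with the most UMIs, 0.084 after thinning and 0.41 with a C1qa level of 20, and ran from −0.26 to 0.17 when a mouse was left out. Over all genes 2473 were called, against 1571 with DESeq2, 378 after thinning and 1436 with a C1qa level of 5. Thinning leaves fewer UMIs and also reassigns barcodes to the classes, and the cause of these changes was not tested.

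Without the mouse as a block (no replicate block) 1681 genes were called between the classes, Ly6i had 1.37, and 0 genes were called in the interaction, against 24 with it. No paired analysis was possible between DEP and PBS because the mice share no replicate number.

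For DEP against PBS, counts over all barcodes were 0 in the main fit, 4 with DESeq2, 119 without a gene filter, 1 without the 5% of barcodes with the most UMIs and 7 to 35 with a mouse left out. In the Ccr2-high C1qa-low class they were 0, 25 without a gene filter, 1 without signature barcodes and 0 to 36 with a mouse left out. In the Ccr2-low C1qa-high class they were 0, 12 with DESeq2, 1 with filterByExpr, 115 without a gene filter, 1 with the limits on genes and mitochondrial UMIs per barcode, 6 without signature barcodes, 5 with a Ccr2 level of 2, 2 with a Ccr2 level of 5 and 0 to 32 with a mouse left out. The members called there were 0, 1 without a gene filter and 0 to 1 with a mouse left out. In the interaction 24 genes became 61 without a gene filter, 2 after thinning, 1 with a C1qa level of 5 and 0 to 41 with a mouse left out, and 1 member was called without a gene filter or with a C1qa level of 20.

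Over all barcodes, leaving out a mouse moved Ly6c2 from −0.34 to 0.069, Ly6i from −0.59 to 0.85 and Ly6e from −0.10 to 0.15, and Ly6e was −0.0059 without a gene filter. In the Ccr2-high C1qa-low class Ly6c1 was 0.52, 0.30, 0.046 and 0.045 with C1qa levels of 5 and 20 and Ccr2 levels of 2 and 5, Ly6a was −0.78 after thinning, and Ly6e was 0.14 after thinning and 0.022 with a C1qa level of 20. Leaving out a mouse there gave −0.43 to 0.025 for Ly6c1, −0.34 to 1.12 for Ly6i, −0.070 to 0.49 for Ly6a and −0.19 to 0.086 for Ly6e. In the Ccr2-low C1qa-high class Ly6a was 0.31 after thinning and 0.028 with a C1qa level of 5, where Ly6e was 0.015. Leaving out a mouse there gave −1.60 to 0.20 for Ly6i, −0.83 to 0.063 for Ly6a and −0.23 to 0.069 for Ly6e.

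In the interaction Ly6c2 was −0.060 with a C1qa level of 5 and Ly6a −1.15 after thinning, or −0.058 to 1.10 with a mouse left out. Ly6e was −0.0052 with RLE size factors, −0.0033 with DESeq2, −0.0017 with filterByExpr, −0.0030 without a gene filter, −0.0057 with the gene and mitochondrial limits, −0.0062 without signature barcodes, −0.060 without the 5% of barcodes with the most UMIs, −0.062 with a C1qa level of 5, −0.016 with a Ccr2 level of 2 and −0.10 to 0.13 with a mouse left out. The Ly6c2 share differed by −3.99 to 0.0225 percentage points with a mouse left out. For MHC class II, 4 members had 1 direction in all mice, 1 after thinning. For the interferon list in the Ccr2-low C1qa-high class 2 did, 4 after thinning and 4 without signature barcodes. With 2 mice per group, leaving out a mouse assumes that the lone mouse varies like the others, and Ly6c1 rested on 45 to 75 UMIs per mouse.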
